A study of Mus musculus with 8 samples.

Results

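The miR-183 cluster comprises mmu-miR-183, mmu-miR-96 and mmu-miR-182, hereafter miR-183, miR-96 and miR-182, and all 3 members were found by name among the 611 mouse miRNAs of the array. The expression of the cluster was followed in terminal end buds (TEBs), mature ducts and stroma, which were micro-dissected from the mammary glands of 5-week-old female β-actin–GFP reporter mice of the FVB/n strain. TEBs are the growing tips of the pubertal ductal tree, ducts are the epithelium left behind them, and the stroma was taken distal to the epithelium. All mice carried GFP driven by the β-actin promoter, which is active in most cell types, and none was treated. TEBs were measured on 3 arrays, ducts on 2 and stroma on 3, each labelled from 100 ng of total RNA. The labels do not say that replicates came from separate mice, so the p-values measure the spread between these RNA samples.

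The members are processed from hairpins of a shared primary transcript, and the cluster is conserved across animals. It is best known from sensory organs such as the retina and the inner ear, where changes in the seed of miR-96 cause hearing loss, and from carcinomas in which its members are often raised. A miRNA recognises its targets mainly through its seed, which is bases 2 to 8 of the mature strand. The following mature sequences, from RefSeq on GRCm38.p6, are shown because the members share most of the seed but not all of it. Capitals mark the seed.
mmu-miR-183-5p: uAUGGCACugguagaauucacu
mmu-miR-96-5p: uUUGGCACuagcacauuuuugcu
mmu-miR-182-5p: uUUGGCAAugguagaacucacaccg
The array names these strands miR-183, miR-96 and miR-182. Counting positions from 1 at the 5′ end, the seed of miR-183 differs from that of miR-96 by A2U, and the seed of miR-96 differs from that of miR-182 by C8A. Outside the seed, miR-183 resembles miR-182 more closely. Those strands are identical at 18 of the 22 positions compared, and they differ by A2U, C8A, U17C and U22A. miR-183 and miR-96 are identical at 13 of 22 positions. Among the 1679 mature mouse sequences of the RefSeq table, only miR-1271-5p carries the seed of miR-96, and no other miRNA carries that of miR-183 or miR-182. miR-1271 was not among the names on the array.

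The hairpins lie on the minus strand of chromosome 6 (GRCm38.p6), in the transcribed order Mir183, Mir96 and Mir182. Mature miR-183 maps to chr6:30169711-30169732, miR-96 to chr6:30169506-30169528 and miR-182 to chr6:30165962-30165986. The Mir183 and Mir96 hairpins are separated by 116 bases, while 3453 bases separate Mir96 from Mir182, and the cluster spans 3820 bases in all. It lies within the annotated extent of the long non-coding RNA gene Mirc35hg and overlaps no protein-coding gene. The nearest protein-coding genes are Nrf1, 12459 bases away towards lower coordinates, and Ube2h, 41551 bases away towards higher coordinates.

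**Figure D1:**
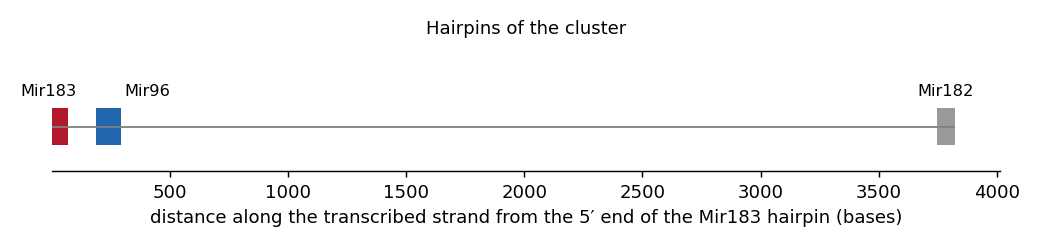
The 3 hairpins drawn to scale along the transcribed strand, with the distance in bases from the 5′ end of the Mir183 hairpin on the horizontal axis. Mir183 and Mir96 lie 116 bases apart and Mir182 lies 3453 bases beyond Mir96.

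Between 23.2% and 27.7% of the mouse miRNAs were detected per array, and the summed signal of the mouse miRNAs ranged from 54239 to 88828 intensity units, with the ducts highest. The values below are scanner signals with the background subtracted, scaled so that arrays were equal at the 75th percentile of those 108 miRNAs that all 8 arrays detected. The scale factors ranged from 0.75 to 1.36. Differences are in log2 units of these scaled signals, with values under 1 set to 1, and were tested by limma with Benjamini-Hochberg adjustment over 167 miRNAs, each detected throughout the arrays of at least 1 tissue. miR-183 and miR-96 were among the 167, while miR-182 was not. Of a list of 7 epithelial miRNAs (the miR-200 family, miR-205 and miR-203), 6 were detected on all 5 epithelial arrays and on none from stroma, and miR-203 was detected on no array. The list summed to 1956 to 2059 scaled units on the TEB arrays, 2078 to 2316 on the duct arrays and 2.71 to 16.1 on the stroma arrays. Of 5 mesenchymal miRNAs (miR-199a-3p, miR-199a-5p, miR-214, miR-143 and miR-145), 4 were detected on all 8 arrays and miR-145 on none. This list summed to 3160 to 3779 units in TEBs, 3427 to 3512 in ducts and 2467 to 2964 in stroma, so as processed here it was lowest in stroma. miR-199a-3p is the largest term of these sums. Of the 4, 3 passed as higher and miR-143 as lower in TEBs than in stroma, where 64.7% of all 167 tested miRNAs passed, 20.4% as higher. In ducts 2 passed as higher than in stroma, where 21.6% of all passed, 9.58% as higher. With the percentile taken over all mouse miRNAs instead, neither duct call stood (adjusted p = 0.30 for miR-199a-5p and 0.54 for miR-214 from limma). With no scaling both stood. Under the percentile over all mouse miRNAs, miR-143 did not pass between TEBs and stroma (-0.007, adjusted p = 0.99 from limma), while the 3 higher calls in TEBs stood. In such tissue fractions, fewer cells of a type cannot be told apart from less of a miRNA per cell.

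miR-183 and miR-96 were measured in both epithelial fractions and not in stroma, whereas miR-182 was not detected in any sample. The scaled signal of miR-183 was 43.9, 56.1 and 49.8 on the TEB arrays, 29.3 and 32.8 on the duct arrays, and -8.45, -13.5 and -6.58 on the stroma arrays. The tissues did not overlap, with TEBs highest, ducts between and stroma below zero. The scaled signal of miR-96 was 57.7, 77.3 and 67.7 in TEBs, 45.7 and 50.3 in ducts, and -1.47, -4.16 and 0.48 in stroma, and these groups also did not overlap. Of the 167 tested miRNAs, 22.2% had all TEB arrays above all duct arrays, and 24% had them above all stroma arrays. All duct arrays lay above all stroma arrays for 22.2%. The share with the full order of the tissues was not counted. miR-183 and miR-96 were both flagged as detected on the 5 epithelial arrays and on none from stroma, a pattern shared by 9 miRNAs in all. Their signals were modest for detected miRNAs. Between 8.61% and 47.3% of the detected miRNAs of the same array were dimmer than miR-183, and the signal of miR-183 was 3.46 to 8.19 times its scanner error on the epithelial arrays. For miR-96 the signal was 5.33 to 10.7 times its error on those arrays.

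The scaled signal of miR-182 was 2.20, 0.45 and -0.21 in TEBs, -8.09 and -3.79 in ducts, and -6.84, -7.68 and -4.59 in stroma. None of the 8 signals was flagged as detected, and each lay within 1.07 scanner errors of zero. The 3 TEB arrays were above all others, and the share of undetected miRNAs with this order was not counted. The median signal of the undetected miRNAs moved alongside, at -3.81, -4.55 and -6.89 in TEBs against -13.4 and -7.39 in ducts and -11.7, -15.3 and -8.21 in stroma, and its part in the order of the miR-182 signals was not tested. Within its own array, miR-182 exceeded 78.9% to 87.8% of the undetected miRNAs in TEBs, 65.6% and 66.1% in ducts and 60.4% to 66.5% in stroma. No fold change is given for miR-182, since the signal was at the background in every tissue. This does not show that miR-182 was absent, because the response of its probe on this array was not tested. The only opposite-strand miRNA of these hairpins on the array, miR-183*, was not detected either. Its scaled signal ranged from -29.7 to -9.03, and on each array it was among the lower signals, exceeding 5.73% to 14.4% of the mouse miRNAs.

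**Figure D2:**
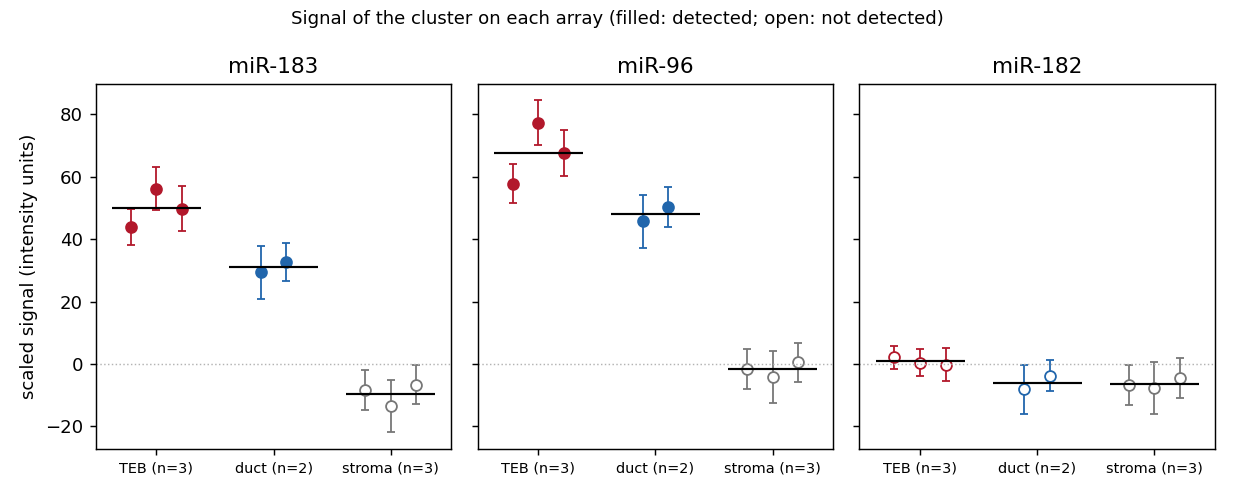
Scaled signal in intensity units of miR-183, miR-96 and miR-182 on each of the 3 TEB, 2 duct and 3 stroma arrays. Points are arrays with the scanner error as bars, filled where the miRNA was flagged as detected, and horizontal lines are tissue means. miR-183 and miR-96 are highest in TEBs and at the background in stroma, and miR-182 stays near zero throughout.

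The comparison of each epithelial fraction with stroma asked which members were epithelial. The mean scaled signal of miR-183 in TEBs was 49.9 ± 6.13 (SD, n = 3). It was 31.04 ± 2.42 in ducts (SD, n = 2), and in stroma -9.50 ± 3.55 (SD, n = 3). Because stroma was below detection, a nominal limit was set there at the dimmest detected miRNA of each stroma array (11.0, 11.9 and 3.18 scaled units). It is not a strict bound, since undetected miRNAs on these arrays reached 4.53 to 4.97 times their scanner error. Against this nominal limit miR-183 was 6.66-fold higher in TEBs and 4.16-fold higher in ducts. The mean for miR-96 in TEBs was 67.6 ± 9.79 (SD, n = 3). Ducts averaged 48.0 ± 3.29 (SD, n = 2), and stroma -1.72 ± 2.33 (SD, n = 3). Against the same nominal limit miR-96 was 9.0-fold higher in TEBs than in stroma and 6.43-fold higher in ducts. With stroma at the floor, the fitted log2 differences of TEBs from stroma were 5.63 (standard error 0.11, adjusted p = 3.2e-08 from limma) for miR-183 and 6.07 (standard error 0.12, adjusted p = 3.2e-08) for miR-96. Those of ducts from stroma were 4.95 (standard error 0.13, adjusted p = 1.4e-07) and 5.58 (standard error 0.14, adjusted p = 1.3e-07). The size of these fitted differences is set by the floor, which also leaves no spread among the stroma arrays for the estimate of error. With the floor at the lowest detected signal, adjusted p of TEBs against stroma was 0.0042 for miR-183 and 0.0024 for miR-96 from limma. For ducts against stroma it was 0.042 and 0.019. In that fit the stroma values of both miRNAs were the limits of the arrays given above. The stroma part of the spread was therefore that of these limits, not that of either miRNA between RNA samples. When the background was instead corrected by normexp (offset 50), the differences of TEBs from stroma were 0.54 for miR-183 and 0.62 for miR-96. For ducts they were 0.29 and 0.39, and the call was lost for miR-183 (adjusted p = 0.050 from limma).

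The calls against stroma stood on different backgrounds. Of the 167 tested miRNAs, 64.7% passed between TEBs and stroma, with 20.4% higher and 44.3% lower in TEBs. Between ducts and stroma 21.6% passed, with 9.58% higher and 12% lower in ducts. Both tested members passed as higher in the epithelial fraction in each comparison. They were among the tested miRNAs only because the epithelial arrays detected them, so the direction of these calls was largely fixed by the filter. All TEB arrays lay above the stroma arrays for 24% of the tested miRNAs, and all duct arrays for 22.2%. The split of calls depended on the scaling. As processed here, 34 miRNAs were higher and 74 lower in TEBs than in stroma, against 38 and 28 with the percentile taken over all mouse miRNAs and 41 and 41 with no scaling. For ducts against stroma the counts were 16 higher and 20 lower, against 11 and 8 with the percentile over all mouse miRNAs and 52 and 4 with no scaling. Under each of these scalings the epithelial fraction was the higher for both members. When TEB and duct arrays were put together, which are not replicates of a single group, all 5 lay above the 3 stroma arrays for miR-183 and for miR-96 (exact two-sided permutation test, p = 0.018 for each, the smallest p that 5 arrays against 3 allow). Such a separation was found for 16.2% of the tested miRNAs. For miR-182 the epithelial signals ran from -8.09 to 2.20 and overlapped the stromal range of -7.68 to -4.59.

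The comparison of TEBs with ducts asked whether the cluster differed between the growing tips and the mature epithelium. Both measured members were higher in TEBs. miR-183 was 1.60-fold higher, a log2 difference of 0.68 (standard error 0.13, 95% interval 0.38 to 0.98, adjusted p = 0.015 from limma). miR-96 was 1.40-fold higher, a log2 difference of 0.48 (standard error 0.14, 95% interval 0.16 to 0.81, adjusted p = 0.047). By this test 24.6% of the 167 miRNAs passed, 11.4% as higher and 13.2% as lower in TEBs, and miR-183 was number 16 and miR-96 number 19 of the 19 that did so, in order of fold change. For each of these miRNAs the lowest TEB array was above the higher duct array, as it was for 22.2% of the tested miRNAs. The lowest TEB signal of miR-183, 43.9 with a scanner error of 5.77, and its highest duct signal, 32.8 with an error of 6.02, were separated by less than the sum of those errors. The same held for miR-96, at 57.7 with an error of 6.27 and 50.3 with an error of 6.28. The exact two-sided permutation test gave p = 0.1 for miR-183, the smallest that 3 arrays against 2 allow, and p = 0.2 for miR-96.

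These differences are small, and their calls were less secure than those against stroma. The stroma arrays, all at the floor, add no spread to the estimate of error for these miRNAs. In a fit of TEBs and ducts alone, miR-183 remained past the threshold (adjusted p = 0.048 from limma) and miR-96 did not (adjusted p = 0.10). Without TEB replicate 2 or without duct replicate 1, neither passed, with adjusted p = 0.053 and 0.10 for miR-183 and adjusted p = 0.094 and 0.23 for miR-96 from limma. Undetected miRNAs lay further below zero on the duct arrays, as given above for miR-182. With each array zeroed on the median of its undetected miRNAs, the log2 differences were 0.41 for miR-183 (adjusted p = 0.31) and 0.32 for miR-96 (adjusted p = 0.14). Within the first row of array positions, which held 2 TEB arrays and 1 duct array, the log2 differences were 0.76 for miR-183 and 0.55 for miR-96. Within the second row, with 1 of each, they were 0.60 and 0.43. The direction, higher in TEBs, was kept for both miRNAs in all 22 alternative fits that gave a value. Not all of these could change it. The differences were the same with the floor at the lowest detected signal, no detection filter, another test or a stroma array left out.

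The size of the differences depended on the scaling. The median difference of TEBs from ducts over the 167 miRNAs was -0.10 as processed here, 0.45 with the percentile over all mouse miRNAs, -0.47 with no scaling and 0.02 after quantile normalization. The split of calls moved with it, from 19 higher and 22 lower in TEBs to 24 and 6, to 12 and 63, and to 31 and 14. The log2 difference of miR-183 was 0.68, 1.23, 0.32 and 1.17 in the same order, and that of miR-96 was 0.48, 1.04, 0.12 and 0.66. The first 3 of these multiply each array by a constant and so leave the differences relative to the median of the tested miRNAs as they are, at 0.78 for miR-183 and 0.59 for miR-96. Quantile normalization moved them to 1.15 and 0.64. Without scaling, neither passed the threshold, with adjusted p = 0.16 for miR-183 and adjusted p = 0.59 for miR-96 from limma.

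**Figure D3:**
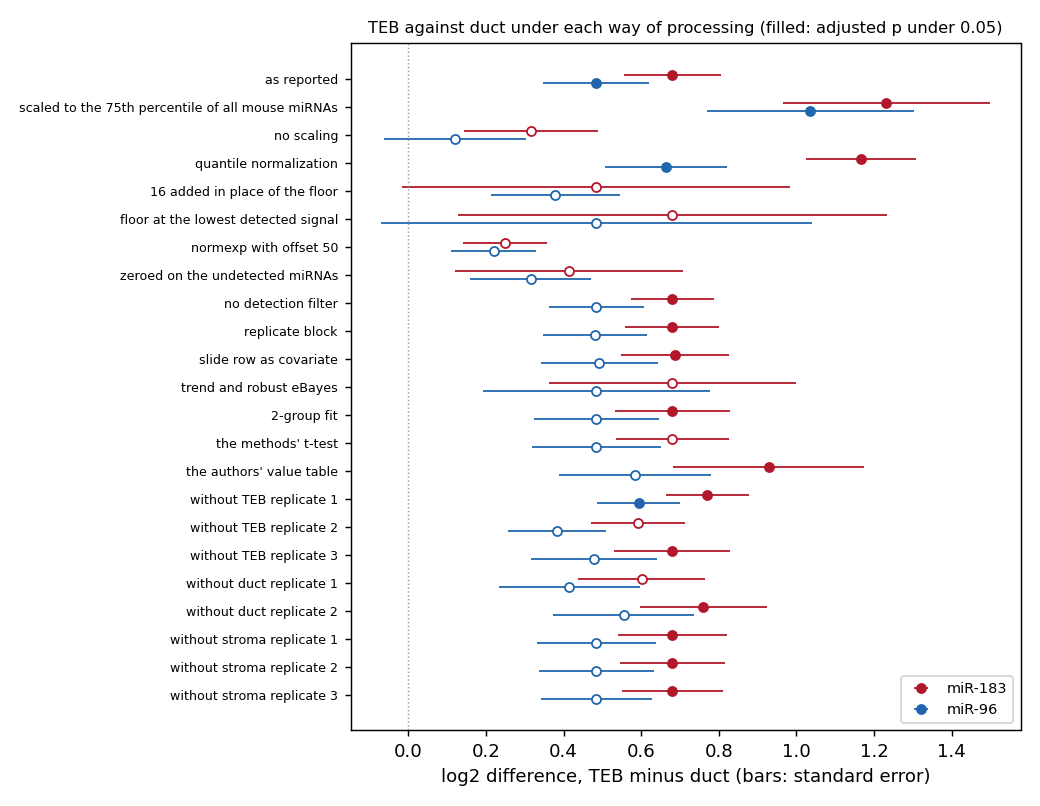
Log2 difference of TEBs from ducts for miR-183 (red) and miR-96 (blue) as reported and under each alternative, with standard errors as bars and filled points where the adjusted p was under 0.05. All values lie above zero, and miR-183 is past the threshold under more of the alternatives than miR-96.

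The difference of TEBs from ducts was somewhat larger for miR-183 than for miR-96. The within-array log2 ratio of miR-183 to miR-96, in which the scaling cancels, was -0.40, -0.46 and -0.44 on the TEB arrays and -0.64 and -0.62 on the duct arrays. The ratio was thus 0.20 higher in TEBs, and the groups did not overlap (exact two-sided permutation test over the only pair that could be tested, p = 0.1, the smallest that 3 arrays against 2 allow). It does not give the relative amounts of the miRNAs, since signals of different probes are not comparable. The size of the difference in the ratio depended on the background and the normalization. It was 0.10 with 16 added in place of the floor, 0.10 with zeroing on the undetected miRNAs, 0.03 with normexp (exact permutation p = 0.4) and 0.50 with quantile normalization.

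Over all 8 arrays, the tested miRNA whose log2 signal was most like that of miR-183 was miR-96, with Pearson's r = 0.999. It was followed by miR-141 (r = 0.996), miR-200c (r = 0.995), miR-205 (r = 0.993) and miR-200b (r = 0.993). The same miRNAs, in the same order after miR-183 itself, were nearest to miR-96, with r from 0.999 to 0.996. All of these were undetected in stroma, so the likeness rests mainly on the split of the 5 epithelial arrays from the 3 floored stroma arrays. miR-141, miR-200b and miR-200c belong to the miR-200 family, which maintains the epithelial state by repressing the Zeb transcription factors, and miR-205 is a further miRNA of epithelia.

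Of the 6 tested members of the epithelial list, none passed as higher in TEBs than in ducts, 1 passed as lower and 5 did not pass, beside 24.6% of all 167 tested miRNAs that passed and 13.2% that were lower. The list had a median log2 difference of -0.07 against -0.10 for all tested miRNAs. miR-200a was the member that passed, at 76.7 units in TEBs against 228 in ducts, a log2 difference of -1.57 (standard error 0.13, adjusted p = 0.00037 from limma). miR-141 had the highest difference of the list, 0.19 (adjusted p = 0.21). Calls within this list depended on the scaling, though miR-200a passed as lower under each. After quantile normalization miR-141 (0.35, adjusted p = 0.031 from limma) and miR-205 (0.48, adjusted p = 0.019) passed as higher in TEBs. With no scaling miR-200b passed as lower (-0.51, adjusted p = 0.032 from limma). Among the 9 miRNAs that the 5 epithelial arrays detected and the stroma arrays did not, miR-183 and miR-96 came next after miR-18a by the difference of TEBs from ducts. miR-18a, which belongs to a cluster known to promote proliferation, had a log2 difference of 2.59 (standard error 0.43, adjusted p = 0.013).

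**Figure D4:**
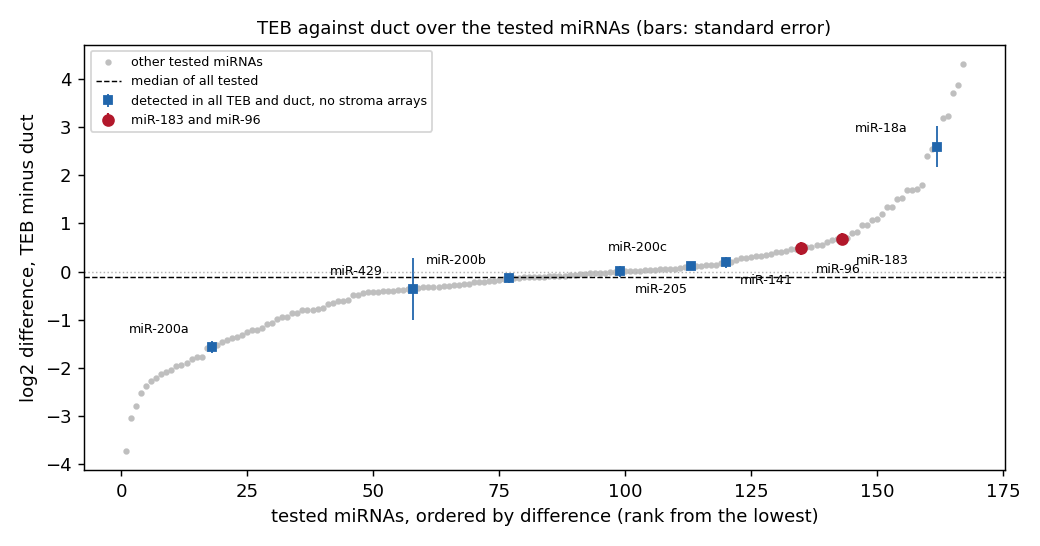
Log2 difference of TEBs from ducts for the 167 tested miRNAs, ordered from the lowest. Red points mark miR-183 and miR-96, blue squares the other miRNAs detected on all 5 epithelial arrays and on none from stroma, bars are standard errors and the dashed line is the median of all tested miRNAs. miR-183 and miR-96 lie to the right of the miR-200 family and to the left of miR-18a.

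Markers of other cell types were set beside these differences, first between TEBs and ducts. Of 5 miRNAs of sensory and neural tissue, miR-124, miR-9 and miR-7a were detected on no array, miR-204 on all 8 and miR-211 on 7. That list summed to 44.7 to 78.2 units in TEBs, 85.3 to 144 in ducts and 99.3 to 162 in stroma, and its member miR-211 passed as lower in TEBs than in ducts (log2 difference -1.77, adjusted p = 0.047 from limma). The red cell miRNAs miR-451 and miR-144 summed to 1370 to 1902 units in TEBs and 2591 to 3276 in ducts, and the endothelial list, of which only miR-126-3p was detected, to 1315 to 1650 and 1927 to 2061. Of 4 leukocyte miRNAs, miR-142-3p and miR-223 were detected on all 8 arrays and the other two on none, and the list summed to 296 to 450 units in TEBs and 361 to 384 in ducts. Of 3 skeletal muscle miRNAs, 2 were detected on at least 1 array and miR-206 on none, with sums of 9.39 to 58.5 units in TEBs and 24.3 to 121 in ducts. None of the 6 tested members of these last 4 lists passed between TEBs and ducts, beside 24.6% of all tested miRNAs. miR-143 of the mesenchymal list passed as lower in TEBs (log2 difference -0.61, adjusted p = 0.027 from limma). These calls depended on the scaling. With the percentile over all mouse miRNAs, neither miR-143 (-0.06, adjusted p = 0.88 from limma) nor miR-211 (-1.22, adjusted p = 0.051) passed. With no scaling both did, and so did miR-451, miR-126-3p and miR-133a, all lower in TEBs (adjusted p = 0.039, 0.040 and 0.019 from limma). After quantile normalization miR-451 passed (adjusted p = 0.048 from limma) and miR-143 did not (adjusted p = 0.074).

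Against stroma, some markers of vessels and blood passed as lower, most of them in TEBs. The endothelial list summed to 2765 to 3863 units in stroma, and miR-126-3p passed as lower than in stroma in TEBs (log2 difference -1.20, adjusted p = 0.00096 from limma) and in ducts (-0.75, adjusted p = 0.022). The red cell list summed to 1988 to 3577 units in stroma, and miR-451 (-0.85, adjusted p = 0.027) and miR-144 (-1.22, adjusted p = 0.022) passed as lower in TEBs but neither passed in ducts. The leukocyte list summed to 563 to 679 units in stroma, and miR-223 passed as lower in TEBs (-0.64, adjusted p = 0.020) and did not pass in ducts (-0.69, adjusted p = 0.056). miR-211 also passed as lower in TEBs than in stroma (-2.02, adjusted p = 0.0082). The skeletal muscle list summed to 15.6 to 25.9 units in stroma, and its tested member passed in neither comparison. With the percentile over all mouse miRNAs, miR-126-3p, miR-451, miR-144 and miR-223 kept the lower value in TEBs and no longer passed, with adjusted p from 0.051 to 0.49 by limma. In ducts miR-126-3p also no longer passed under that scaling (-0.91, adjusted p = 0.13 from limma) or with no scaling (-0.14, adjusted p = 0.68). It passed there after quantile normalization (-0.78, adjusted p = 0.0045 from limma). Lower calls were common as processed here, at 44.3% of all tested miRNAs in TEBs and 12% in ducts. The part of these cell types in the differences of miR-183 and miR-96 was not tested.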

How the data were processed

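RNA from 8 micro-dissected samples was labelled with Cy3-pCp and hybridised to Agilent mouse miRNA 1-colour arrays. For each array the authors deposited the total signal intensity of each miRNA from Agilent Feature Extraction 9.5.3, its error and a detection flag, background-subtracted and not normalized between arrays. The deposited value table holds log2 values that share their 100 highest sorted values between columns (largest difference 0) and have column medians of 0.14 to 1.48. Its normalization is not given in the sources used here, and it served as an alternative.

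Control rows (22) and 39 probes of other species were left out. Signals were scaled at the 75th percentile of those 108 miRNAs that all 8 arrays detected, since the percentile of all 611 mouse miRNAs fell at 11.5 to 29.9 units, among the weakest signals. Scaled values under 1 were set to 1, log2 values were taken, and limma 3.58.1 in R 4.3.3 compared the tissues in a fit of all 8 arrays, with a threshold of 0.05 on the adjusted p. Single values were tested by exact permutation of arrays. The files give no counts, so the number of arrays limits the precision. The members and marker lists were chosen with earlier results of these data known. The miRNAs named were the members, the opposite strands of their hairpins, miRNAs of the same seed, the 5 most correlated with each tested member and the list members with the largest and smallest differences. miR-18a was named after its values were seen. Alternatives changed the scaling, floor, background, filter, covariates, test, value source and arrays used, and zeroing on undetected miRNAs was chosen after seeing the data.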

Additional observations from a re-analysis of the deposited data

How the results depend on the processing

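The differences of miR-183 and miR-96 from stroma kept their direction in all alternatives, and all passed the threshold except that of miR-183 between ducts and stroma with normexp (0.29). Between TEBs and ducts the direction was kept throughout, in part through fits that could not change the difference. miR-183 did not pass with no scaling (0.32), with 16 added in place of the floor (0.48), with the floor at the lowest detected signal (0.68), with normexp (0.25), with zeroing on the undetected miRNAs (0.41), and with trend and robust eBayes or the methods' t-test (0.68 each). For miR-96 the same settings gave 0.12, 0.38, 0.48, 0.22, 0.32 and, for the last pair, 0.48, and it also did not pass with no detection filter or a fit of TEBs and ducts alone (0.48 each), the slide row as a covariate (0.49) or the authors' value table (0.58). Leaving out each array in turn gave 0.59 to 0.77 for miR-183, past the threshold in 6 of 8 fits, and 0.38 to 0.59 for miR-96, past it in 1 of 8. The fits without a stroma array could change only the estimate of error, not the difference. Where leaving out an array left a single duct array, that array was assumed to vary like the other groups. With the floor at the lowest detected signal the differences were unchanged, while the standard error was 0.55 for each miRNA, against 0.13 and 0.14 as processed. Trend and robust eBayes, the methods' t-test, no detection filter and the fit of TEBs and ducts alone also left the differences unchanged. They altered only the test or its adjustment. The cause of calls lost where the difference itself changed was not tested. A filter on detection on all 8 arrays removes both members.

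The labels number the replicates, but same-numbered samples did not share their deviations from the tissue means (mean r = -0.104 over 7 pairs, from -0.510 to 0.362, against 0.052 for the 14 other pairs). In the fit with a replicate block, miR-183 passed between TEBs and ducts (0.68, adjusted p = 0.043 from limma), miR-96 did not (0.48, adjusted p = 0.086), and 16 miRNAs were called against 41.

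The number called between TEBs and ducts was 75 with no scaling, 27 with normexp, 70 with zeroing, 18 with no detection filter and 12 by the methods' t-test after Benjamini-Hochberg adjustment (53 at an unadjusted p under 0.05), and 5 to 45 on leaving out each array, with 5 without TEB replicate 2, 7 without duct replicate 1 and 25 without duct replicate 2. Between TEBs and stroma 66 were called with the percentile over all mouse miRNAs (108 as processed). Between ducts and stroma 19 were called with that percentile, 56 with no scaling and 69 with normexp (36 as processed), and 22 to 40 on leaving out each array, with 22 without duct replicate 1.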
